A study of Mus musculus with 2 samples.

Results

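The 8 genes described here encode hepcidin and the proteins that carry, take up, release and break down iron and heme in the liver: Hamp, Hamp2, Trf, Tfr2, Tfrc, Slc40a1, Hmox1 and Cd163. They were taken by name from the 19059 genes of the 2 deposited matrices, and all 8 were present in both. Single-cell RNA-seq was run on liver from AEG-1 floxed mice (AEG-1fl/fl) and from mice in which floxed AEG-1, the gene Mtdh, is deleted in myeloid cells by a LysM-driven Cre (AEG-1DMAC). Both groups carry the floxed allele, were fed a high-fat and high-sugar diet (HF/HSD) from 7 weeks of age for 20 weeks and were 27 weeks old, and each is represented by 1 library. Whether a library came from 1 animal is not stated in the sources used here. With 1 library per genotype nothing below is a test. Intervals are 95% intervals of the counts, they cover counting error only, and the variation between mice is not known.

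Hepcidin is a peptide hormone that hepatocytes secrete. It binds ferroportin, the product of Slc40a1 and the only known cellular exporter of non-heme iron, and causes its degradation, so that macrophages and enterocytes retain iron. Its transcription is driven by bone morphogenetic proteins from sinusoidal endothelium acting through hemojuvelin and SMAD proteins, and by interleukin-6 acting through STAT3, while the hepatocyte protease Tmprss6 restrains it. Transferrin (Trf) carries iron in plasma, transferrin receptor 1 (Tfrc) imports it, and transferrin receptor 2 (Tfr2) senses the iron-loaded form. Kupffer cells take up haptoglobin-bound hemoglobin through Cd163 and open the heme ring with heme oxygenase-1 (Hmox1).

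The hepcidin genes lie on the minus strand of chromosome 7, 17686 bases apart, Hamp (ENSMUSG00000050440) at chr7:30942368-30944032 and Hamp2 (ENSMUSG00000056978) at chr7:30922372-30924681 of GRCm38 in GENCODE M21. Expression was read with hybridized probes whose sequences were not used here, so how far the pair is separated is uncertain, and levels of Hamp and Hamp2 are not compared with each other.

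The 250 bases before the annotated start of each hepcidin gene (RefSeq, GRCm38.p6, minus strand) are shown because Hamp and Hamp2 differed between the libraries in opposite directions (log2 ratios of -0.62 and 1.12 in hepatocytes). Hamp lies at chr7:30944030-30944279 and Hamp2 at chr7:30924182-30924431, the latter inside the GENCODE span of the Hamp2 gene given above. Capitals mark matches to the core of a BMP response element (GGCGCC), to the E-box CACCTG and to a STAT motif (TTCCNNGAA), each searched on both strands. The E-box and STAT matches lie on the strand opposite to the gene.
Hamp promoter: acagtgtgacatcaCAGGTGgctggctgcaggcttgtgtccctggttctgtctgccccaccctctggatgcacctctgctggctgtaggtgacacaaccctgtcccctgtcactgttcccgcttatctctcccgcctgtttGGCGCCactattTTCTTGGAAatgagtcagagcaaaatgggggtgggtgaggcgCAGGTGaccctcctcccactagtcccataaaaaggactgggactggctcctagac
Hamp2 promoter: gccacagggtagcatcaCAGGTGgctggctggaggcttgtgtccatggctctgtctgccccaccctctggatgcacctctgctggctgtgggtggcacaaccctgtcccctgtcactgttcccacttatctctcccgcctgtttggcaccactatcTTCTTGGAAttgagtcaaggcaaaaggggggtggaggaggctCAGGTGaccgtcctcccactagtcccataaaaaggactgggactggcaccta
The windows were identical at 227 of 247 aligned bases (91.9%). Hamp held GGCGCC at position -109, and at the aligned position of Hamp2, -106, the motif differed by G4A, counted from 1 at the 5′ end of the motif. Both windows held the E-box at 2 positions (-236 and -55 in Hamp, -233 and -52 in Hamp2) and the STAT motif once (-97 and -94), and these did not overlap. Among 32536 distinct promoters of the same length, GGCGCC was found in 9.65%, CACCTG in 17.3% and TTCCNNGAA in 4.06%. The other motifs searched, the E-box CAGCTG (13.1% of promoters) and the core of an antioxidant response element, TGACNNNGC (10.2%), were found in neither window. Of the other members, Tfrc held GGCGCC and CACCTG in 1 of 2 listed promoters, and Tfr2 and Cd163 held none of the 5 motifs. Trf, Slc40a1 and Hmox1 had no entry in the promoter table. A match is a description of letters and not a binding site.

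The remaining members lie at chr9:103204001-103230444 (Trf, minus strand), chr5:137569840-137587481 (Tfr2, plus), chr16:32608920-32632794 (Tfrc, plus), chr1:45908068-45926523 (Slc40a1, minus), chr8:75093621-75100589 (Hmox1, plus) and chr6:124304656-124330527 (Cd163, plus) of the same build.

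After the study's filter, 2571 cells of the library labelled AEG-1DMAC and 3508 of the library labelled AEG-1fl/fl were kept, of median depth 12742 and 7686 counts, and 10 cell barcodes occurred in both. Cells were put into 9 classes by marker genes, none of them a member. Of the kept cells, 2128 (82.8%) and 2900 (82.7%) passed the gate of exactly 1 class, among them 1303 and 1462 hepatocytes, 224 and 466 macrophages, and 209 and 289 endothelial cells. All 17 macrophage markers, all 14 endothelial markers found in the files and 11 of 14 hepatocyte markers were highest in their own class in both libraries. Hepatocyte transcripts were also counted in other cells: a list of 17 abundant hepatocyte genes reached 49.99% and 28.4% of its hepatocyte level in macrophages and 63.1% and 48.3% in endothelial cells.

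The targeted gene did not follow the labels. Macrophages of the library labelled AEG-1DMAC held 186 counts of Mtdh, or 117 CPM (counts scaled to a class total of 1e+06), and those of the library labelled AEG-1fl/fl 81 counts, or 24.2 CPM, a log2 ratio of 2.27 [1.89, 2.67]. A deletion read by its probes would lower Mtdh in macrophages, and these values run the other way. Hepatocytes held 0.525-fold the macrophage level of Mtdh under the AEG-1DMAC label and 2.39-fold under the AEG-1fl/fl label. Against endothelial cells they held 0.681-fold and 0.638-fold. The direction thus differed between the libraries against macrophages and not against endothelial cells. Whether the probes lie inside the deleted part is not given in the sources used here, and libraries are called by their labels throughout. Every direction between libraries given below carries this doubt.

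The hepcidin genes, transferrin and Tfr2 had their highest levels among the main classes in hepatocytes, and the exporter, heme oxygenase-1 and the hemoglobin receptor had theirs in macrophages. Below, where values come in pairs, the library labelled AEG-1DMAC is given first and the library labelled AEG-1fl/fl second. Hamp was counted at 173 [170, 177] and 266 [262, 270] CPM in hepatocytes, at 68.4 [56.2, 82.5] and 77.6 [68.4, 87.6] CPM in macrophages, and at 76.2 [63.7, 90.3] and 93.0 [79.7, 108] CPM in endothelial cells. Hepatocytes thus stood 2.53-fold and 3.43-fold above macrophages and 2.27-fold and 2.86-fold above endothelial cells, with intervals that did not overlap. Cholangiocytes followed hepatocytes at 158 [140, 178] and 229 [212, 246] CPM, overlapping with them in the library labelled AEG-1DMAC only, and the 17 hepatocyte genes stood at 89.3% and 77.3% of their hepatocyte level there.

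**Figure D1:**
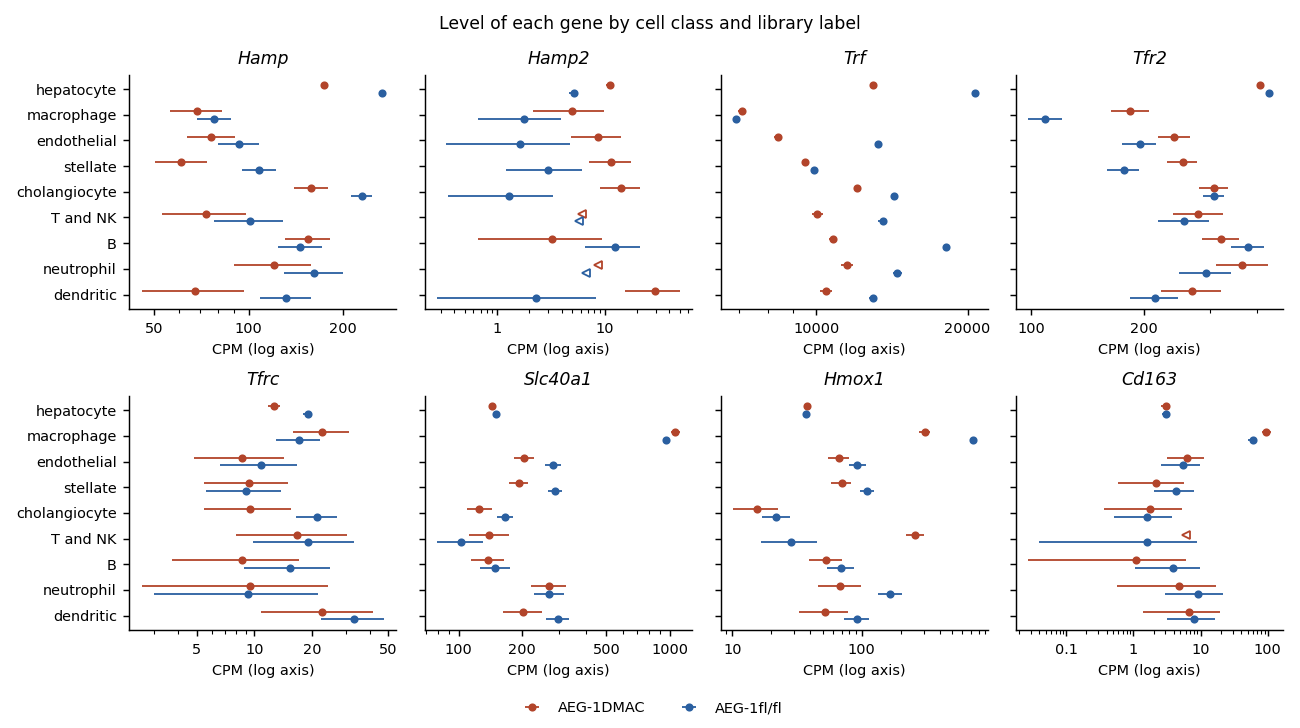
Level of each member in CPM (log axis) by cell class, with 95% Poisson intervals, in the library labelled AEG-1DMAC (red) and the library labelled AEG-1fl/fl (blue); open triangles are upper limits where a class had no count. Hamp, Trf and Tfr2 sit highest in hepatocytes, Slc40a1, Hmox1 and Cd163 sit highest in macrophages, and Hamp2 and Tfrc rest on few counts outside hepatocytes.

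Outside hepatocytes Hamp2 rested on few counts. Hepatocytes held 698 and 354 counts, or 11.2 [10.4, 12.0] and 5.15 [4.63, 5.72] CPM, against 8 and 6 counts in macrophages and 15 and 3 in endothelial cells. The nominally highest class was another in each library, dendritic cells at 29.3 CPM and B cells at 12.5 CPM, but 10 of 13 counts in the former and 13 of 13 in the latter came from 1 cell. Hamp2 had no count in T and NK cells or neutrophils of either library, which allows up to 6.13 CPM in T and NK cells of the library labelled AEG-1DMAC and more in its neutrophils (8.71 CPM).

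Trf stood at 12987 and 20695 CPM in hepatocytes, 7099 and 6906 CPM in macrophages and 8373 and 13271 CPM in endothelial cells. The hepatocyte excess over macrophages was 1.83-fold and 2.997-fold, and the lowest class, macrophages in both libraries, still held the gene at these levels. Tfr2, the iron-sensing receptor, was counted at 409 and 432 CPM in hepatocytes, 184 and 109 CPM in macrophages and 241 and 195 CPM in endothelial cells. It stood 2.22-fold and 3.95-fold above macrophages. Neutrophils reached 366 [311, 428] CPM of Tfr2 in the library labelled AEG-1DMAC, overlapping with hepatocytes, where the 17 hepatocyte genes stood at 83.3% of their hepatocyte level.

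The level of these hepatocyte genes in other classes can be read against the 17-gene list, whose single genes kept 38.8% to 55.7% (AEG-1DMAC label) and 22.1% to 31.0% (AEG-1fl/fl label) of their hepatocyte level in macrophages. Hamp kept 39.5% and 29.2% and Tfr2 45.0% and 25.3%, all inside these ranges. Trf kept 54.7% and 33.4%, the second value above every gene of the list. In endothelial cells Hamp kept 44.0% and 35.0%, below every gene of the list, whose range was 51.4% to 71.7% and 39.4% to 54.4%. Cells shallower than 3000 counts were left out and the others thinned to 3000 counts each, after which 28.3% and 33.3% of hepatocytes had a Hamp count, against 13.0% and 19.7% of macrophages. Of T and NK cells, a class that should lack the gene, 9 of 35 (25.7% [12.5, 43.3]) and 10 of 43 (23.3% [11.8, 38.6]) had one. These wide intervals cover the hepatocyte and the macrophage shares.

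Tfrc had no clear class. Its level was 12.7 [11.8, 13.6] and 19.0 [18.0, 20.1] CPM in hepatocytes, 22.6 [15.8, 31.3] and 17.0 [12.9, 22.0] CPM in macrophages and 8.66 [4.84, 14.3] and 10.8 [6.61, 16.7] CPM in endothelial cells. Macrophages were above hepatocytes in the library labelled AEG-1DMAC (1.78-fold) and not in the other (0.894-fold), and dendritic cells were at 22.6 and 33.1 CPM with wide intervals.

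Slc40a1 was counted at 1062 [1012, 1114] and 956 [924, 990] CPM in macrophages, at 204 and 281 CPM in endothelial cells and at 143 and 151 CPM in hepatocytes. Ferroportin transcripts in macrophages were thus 7.41-fold and 6.34-fold above hepatocytes, and no other class came near. Hepatocytes kept 13.5% and 15.8% of the macrophage level of Slc40a1, above each of the 17 macrophage markers, which kept 2.01% to 10.4% and 1.94% to 6.39%. Endothelial cells kept 19.2% and 29.4%, also above the markers there (3.91% to 16.9% and 3.65% to 13.4%).

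Hmox1 stood at 306 [279, 334] and 725 [697, 755] CPM in macrophages, at 66.4 and 92.5 CPM in endothelial cells and at 37.7 and 37.2 CPM in hepatocytes. Macrophages were 8.09-fold and 19.5-fold above hepatocytes. T and NK cells of the library labelled AEG-1DMAC reached 259 CPM, overlapping with its macrophages, but 110 of their 156 counts came from 1 cell. Cd163 stood at 95.4 [80.8, 112] and 59.7 [51.7, 68.5] CPM in macrophages, 6.35 and 5.41 CPM in endothelial cells and 3.03 and 3.03 CPM in hepatocytes. Its macrophage counts came from 20 and 32 cells, and the highest cell held 30.3% and 22.0% of them.

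Called here means a difference of at least 2-fold in the same direction in both libraries, with at least 50 counts. Of the 8 members, 3 were called higher in hepatocytes than in macrophages (Hamp, Hamp2 and Tfr2), where 8.69% of all genes were, and 3 were called lower (Slc40a1, Hmox1 and Cd163), where 27.9% were. Hamp2 reached 50 counts only through hepatocytes, and the lower ends of its log2 intervals, 0.17 and 0.39, lay below 2-fold, so its place among the 3 is a description. When each cell was given the same weight instead of being summed, Tfr2 alone remained higher, and without the 5% deepest cells Hamp was no longer past 2-fold in both libraries. Against endothelial cells, Hamp alone was higher (2.03% of all genes), and none was lower (26.9%).

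The 5 genes most like each member across 18 points (9 classes in 2 libraries) were taken by Pearson correlation of log2(CPM + 5). These are descriptions over points that share libraries and stray hepatocyte RNA. Siglec1 (0.974) was closest to Slc40a1, and Il18bp, Galc and Acp2 were also among its 5. Cd163 was closest to Slc40a1 itself (0.945), followed by P2rx4 and Spic. Hmox1 was closest to Cd300ld (0.899), Gpnmb and Pltp, Tfr2 to Hsd17b2 (0.987), Slc38a4 and Mat1a, Trf to Ces1d (0.956), and Hamp to Apom (0.898).

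The next question was where along the lobule the hepatocyte genes are expressed. The study lists Hamp and Hamp2, with Igfbp2, as midlobular markers for zoning spatial spots of liver from mice on a control diet. It states that its spatial markers were reused for the single cells of HF/HSD liver. A midlobular peak was therefore looked for in these cells. Hepatocytes of each library were ranked by 16 pericentral against 16 periportal landmark genes, none of them a member, and cut into 3 equal parts or 9 layers. A midlobular peak was called when the middle part exceeded both outer parts by at least 1.2-fold in both libraries.

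By this definition Hamp had no midlobular peak, since the middle part of the ranking was not its highest in either library. From the pericentral over the middle to the periportal part it was counted at 46.8, 162 and 284 CPM in the library labelled AEG-1DMAC. The library labelled AEG-1fl/fl gave 54.1, 193 and 497 CPM. The periportal part was 6.06-fold and 9.18-fold above the pericentral part (log2 2.60 [2.50, 2.70] and 3.20 [3.11, 3.29]), and the middle part reached 0.570 and 0.388 of the periportal level. Over 9 layers Hamp went from 22.8 to 360 CPM and from 33.0 to 603 CPM, with the lowest value in the most pericentral and the highest in the most periportal layer of both libraries. Between layers 7 and 8 of the library labelled AEG-1DMAC the order was broken (250 and 229 CPM). Of 2617 genes with at least 50 CPM in hepatocytes of both libraries, 41 (1.57%) were 2-fold or more above in the periportal part of both, and 9 and 8 genes had a steeper gradient than Hamp.

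**Figure D2:**
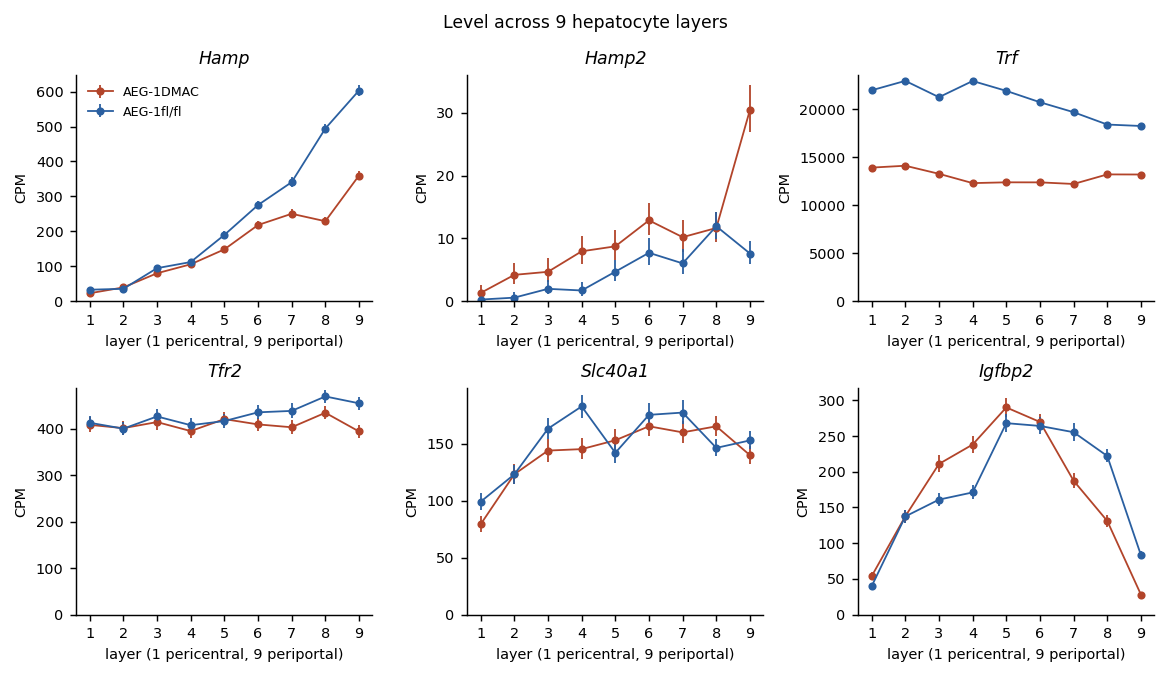
CPM with 95% Poisson intervals across 9 hepatocyte layers, from pericentral (1) to periportal (9), in the library labelled AEG-1DMAC (red) and the library labelled AEG-1fl/fl (blue). Hamp climbs to 360 and 603 CPM in layer 9, Hamp2 is highest in layers 9 and 8, Trf and Tfr2 vary little, and Slc40a1 is lowest in layer 1 (79.4 and 99.2 CPM), while Igfbp2, the check, is highest in the middle.

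Hamp2 followed the same direction at 3.40, 10.1 and 18.3 CPM and at 0.930, 4.73 and 8.94 CPM over the 3 parts. That is 5.38-fold and 9.61-fold from the pericentral to the periportal part. Its highest layer was 9 (30.5 CPM) and 8 (11.9 CPM). Igfbp2, which encodes an insulin-like growth factor binding protein, served as the check. Its middle part exceeded the higher outer part 2.002-fold and 1.31-fold, so the ranking could return a maximum in the middle part. The Kupffer cell gene Cd5l (1.66-fold and 1.52-fold) and the globin gene Hbb-bs (1.35-fold and 1.73-fold) also had one. The check therefore does not show that the middle part is the midlobular zone.

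None of the other members was zoned by 2-fold in both libraries, apart from the sparse Cd163, whose sign was not stable. Trf was at 13785, 12361 and 12931 CPM and at 22054, 21856 and 18660 CPM. Tfr2 was at 408, 408 and 410 CPM and at 413, 420 and 457 CPM. Slc40a1 was lowest in the pericentral part at 115, 155 and 155 CPM and at 128, 167 and 156 CPM, so its middle part was 1.002-fold and 1.07-fold the higher outer part. Over 9 layers Slc40a1 went from 79.4 [72.4, 86.8] CPM in layer 1 to 166 [157, 175] CPM in layer 6 under the AEG-1DMAC label, and from 99.2 [92.2, 107] CPM in layer 1 to 183 [173, 193] CPM in layer 4 under the other. Of the 4 members with at least 50 CPM (Hamp, Trf, Tfr2 and Slc40a1), none was called midlobular, against 18 of all 2617 genes (0.688%). Beside Igfbp2, those 18 included genes of macrophages and antigen-presenting cells (C1qa, C1qb, Cd5l, Clec4f, Cd74 and H2-Aa) and the globin gene Hbb-bs, which were also counted in cells gated as hepatocytes.

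Hmox1, Tfrc and Cd163 lay under 50 CPM in hepatocytes. The middle part of Hmox1 exceeded the higher outer part 1.17-fold and 1.34-fold (43.4 and 45.8 CPM). The Kupffer cell genes Clec4f (1.83-fold and 1.25-fold) and Cd5l (1.66-fold and 1.52-fold) were also highest in the middle part of the gated hepatocytes, and their part in the Hmox1 value was not tested. Tfrc was lowest in the middle part, at 10.8 and 17.2 CPM. Cd163 ranged from 0.823 to 6.30 CPM and from 1.72 to 5.02 CPM, and single cells held up to 30.3% of its hepatocyte counts.

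Of 24 hepcidin regulators of the iron list found in the files, 6 had at least 50 CPM in hepatocytes of both libraries (Hjv, Hfe, Tmprss6, Fgl1, Stat3 and Cebpa), and 0 of these 6 were zoned by 2-fold in either direction. Their periportal over pericentral log2 ratios lay between -0.14 and 0.27 (median 0.03) and between -0.22 and 0.27 (median -0.03), beside a median of -0.13 over all genes in both libraries. Hjv, the BMP co-receptor hemojuvelin, stood at 270, 249 and 244 CPM and at 239, 217 and 205 CPM over the 3 parts. Tmprss6, the protease that cleaves it, stood at 423, 459 and 423 CPM and at 460, 486 and 452 CPM. Hfe, the hemochromatosis protein that associates with transferrin receptors, was also level at 68.7, 74.1 and 63.5 CPM and at 73.5, 74.3 and 72.0 CPM. Among the regulators under 50 CPM, Id1, a transcriptional target of BMP signaling, was 2.25-fold and 1.52-fold higher in the periportal than in the pericentral part, and Atoh8 1.45-fold and 1.88-fold. Others did not share this rise. Smad7 in the periportal part was 1.14-fold and 1.15-fold its pericentral level. Smad6 was 0.663-fold and 0.575-fold, on 21 and 26 periportal counts. Of the heme list, Hpx, the scavenger hemopexin, was 2.002-fold and 2.01-fold higher in the periportal part.

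The genes most like Hamp over the 18 layers of both libraries were Gldc (0.989), Ftcd, Cyp2f2, Tstd1 and Gls2, of which Gldc, Cyp2f2 and Gls2 are themselves among the landmarks that defined the layers. Those most like Hamp2 were Serpina11 (0.959), Afm, Fgg, Fga and Fgb, the last 3 the fibrinogen chains.

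Hamp varied widely from hepatocyte to hepatocyte. Among 984 and 974 hepatocytes with at least 10000 counts, the median was 71.0 and 88.1 CPM, the highest 10% of cells began at 470 and 667 CPM, and the highest cells reached 1804 and 2826 CPM. These 10% of cells held 48.2% and 44.6% of its summed level. For Trf that share was 16.5% and 17.7%, for Tfr2 17.4% and 17.9%, and for Slc40a1, the member nearest to Hamp in hepatocyte counts, 26.8% and 26.9%. When these hepatocytes were ordered by Hamp, the highest 20% held 26.5 and 13.8 CPM of Hamp2, against 4.53 and 1.49 CPM in the lowest 20%. Id1 went from 14.9 to 37.5 CPM and from 10.8 to 23.4 CPM, and Atoh8, another BMP target, from 25.7 to 46.9 CPM and from 13.3 to 38.3 CPM. Under the AEG-1DMAC label Smad7 went from 17.6 to 32.8 CPM and Tmprss6 from 446 to 391 CPM. Smad6 went from 1.13 [0.455, 2.33] to 1.51 [0.934, 2.31] CPM with overlapping intervals. For Smad7, Smad6 and Tmprss6 the values under the other label are not reported here. These groups also differed in zone, since the periportal gene Cyp2f2 went from 311 to 1015 CPM and from 172 to 1354 CPM, and how much of these values goes with zone was not tested.

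Between the libraries, Hamp was lower and Hamp2 higher in hepatocytes of the library labelled AEG-1DMAC. The Hamp values of 173 and 266 CPM gave a log2 ratio of -0.62 [-0.65, -0.58], and the Hamp2 values of 11.2 and 5.15 CPM gave 1.12 [0.93, 1.31]. Hamp2 was the 1 member of 8 past 2-fold in hepatocytes. Among all 12210 genes with at least 50 counts, 1.08% were 2-fold or more higher and 2.94% lower, and the median log2 ratio was -0.04. The Hamp2 counts came from 253 and 130 hepatocytes, and the highest single cell held 14.9% and 11.9% of them. Without that cell the levels were 9.53 and 4.55 CPM.

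**Figure D3:**
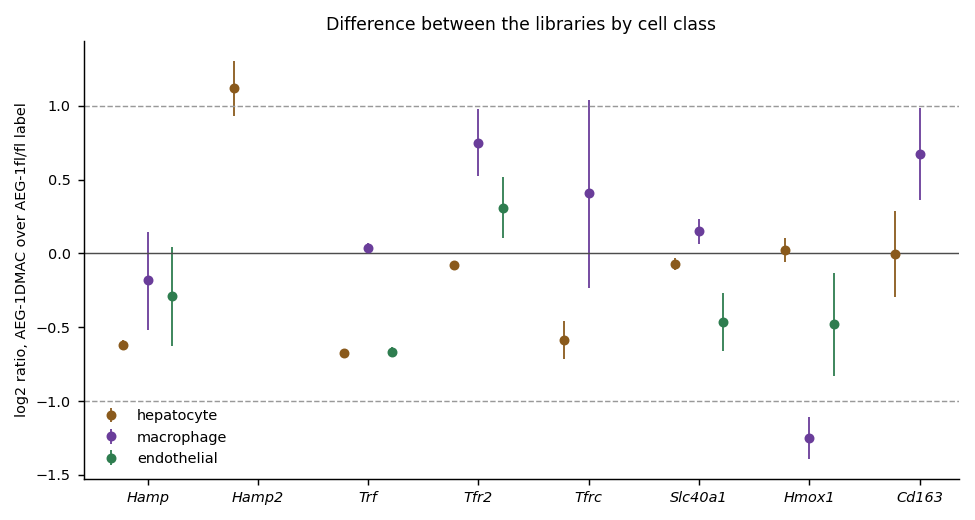
Log2 ratio of the library labelled AEG-1DMAC over the library labelled AEG-1fl/fl for each member with at least 50 counts, in hepatocytes, macrophages and endothelial cells, with 95% intervals from the counts; dashed lines mark 2-fold. Hamp2 in hepatocytes (1.12) and Hmox1 in macrophages (-1.25) lie past 2-fold.

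The lower Hamp of the library labelled AEG-1DMAC was spread unevenly along the lobule. The log2 ratio was -0.21 [-0.34, -0.08] in the pericentral, -0.26 [-0.32, -0.19] in the middle and -0.81 [-0.85, -0.77] in the periportal part. For Hamp2 it was 1.87 [1.12, 2.68], 1.09 [0.74, 1.45] and 1.03 [0.80, 1.27]. The sign was thus the same in every part, and the pericentral value of Hamp2 rested on 62 and 20 counts.

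Other members in hepatocytes differed by less than 2-fold. Trf had a log2 ratio of -0.67, -0.68 in the pericentral, -0.82 in the middle and -0.53 in the periportal part. Tfrc had -0.58 [-0.71, -0.46]. Tfr2 (-0.08), Slc40a1 (-0.07) and Hmox1 (0.02) were within 0.1 of 0. The sparse Cd163 had 0.00, but -1.06 in the pericentral, 1.76 in the middle and -1.50 in the periportal part, and -0.72 to 0.45 over the settings. The libraries also differed in sex-biased liver genes: all 5 measured female-biased genes were higher in hepatocytes of the library labelled AEG-1DMAC (median log2 3.75), and 8 of 12 male-biased genes were lower (median -0.31). Globin and other erythroid transcripts stood at 303 and 156 CPM there, and of 13 acute-phase genes 5 were higher and 8 lower (median -0.15). The part of these differences in the hepcidin values was not tested, and with 1 library each they cannot be told apart from genotype.

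In macrophages, 1 of 7 members with enough counts was past 2-fold, Hmox1, where 3.35% of 9316 genes were higher and 3.6% lower. Its 306 and 725 CPM gave a log2 ratio of -1.25 [-1.39, -1.11]. The value depended on which cells were called macrophages. When they were taken from clusters (336 and 789 cells, which include cells passing several gates), Hmox1 stood at 456 and 672 CPM and the ratio shrank to -0.56, below 2-fold. In those clusters 3 cells held 589 of 1627 counts under the AEG-1DMAC label and 3 held 1112 of 4622 under the other, and without them the ratio was -0.80. With the hepatocyte profile subtracted it was also -0.80.

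The other macrophage ratios were smaller. Slc40a1 had 0.15, Tfrc 0.41, Hamp -0.18 and Trf 0.04. Tfr2, a hepatocyte gene, had 0.75, while the 17 hepatocyte genes as a list had a median of 0.83 in macrophages. Cd163 had 0.68 [0.36, 0.99], but the sign was not stable: it was -0.40 when each cell weighed the same and -0.06 with clusters. In endothelial cells none of 5 members passed 2-fold, against 0.652% of 8902 genes higher and 2.37% lower, and their log2 ratios were -0.66 (Trf), -0.48 (Hmox1), -0.46 (Slc40a1), -0.29 (Hamp) and 0.31 (Tfr2). In smaller classes, Tfrc had -1.16 in cholangiocytes on 16 and 66 counts, Hmox1 had -1.27 in neutrophils and 3.19 in T and NK cells, the last resting on the 1 cell already described.

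Macrophages were further ordered by 6 markers of resident Kupffer cells against 8 of lipid-associated macrophages, which accumulate in fatty liver, and cut at the pooled median. Slc40a1 was counted at 1222 [1161, 1285] and 1623 [1548, 1699] CPM in the resident range and at 524 [452, 604] and 629 [596, 662] CPM in the lipid-associated range. Cd163 was counted at 123 [104, 144] and 170 [147, 196] CPM in the resident range, against 1 and 12 counts (2.74 and 5.34 CPM) in the other. Slc40a1 was thus higher at the resident end, by 2.33-fold and 2.58-fold. For Cd163 the fold was 31.8 in the library labelled AEG-1fl/fl, while the 1 count of the other library gave a log2 ratio of 5.48 [2.98, 10.8]. Slc40a1 and Cd163 were the 2 of 6 measured members past 2-fold in both libraries, where 0.922% of all genes were higher in the resident range and 1.89% in the other. Cd163 reached 50 counts only through the resident range (151 and 188 counts), and its macrophage counts came from 20 and 32 cells. Nothing is therefore read from its ratio or from this count.

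**Figure D4:**
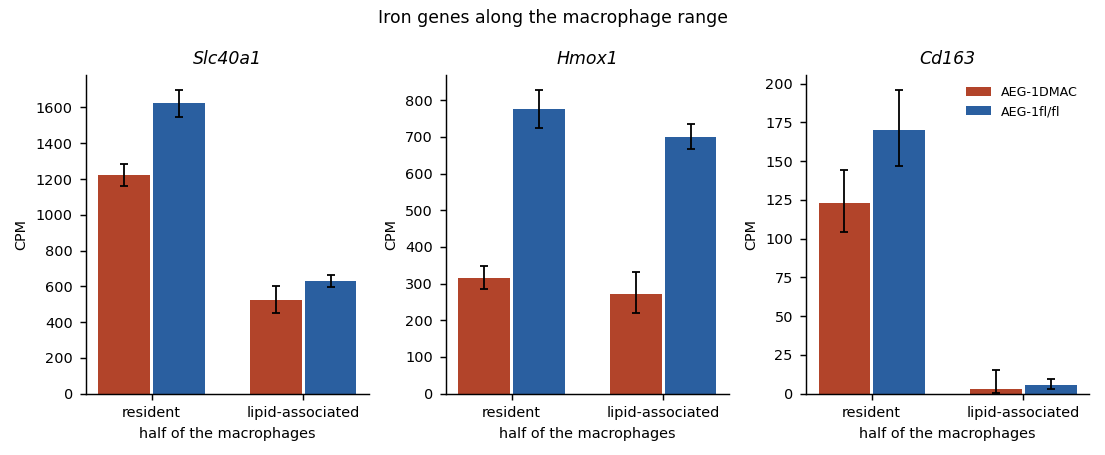
CPM with 95% Poisson intervals of Slc40a1, Hmox1 and Cd163 in macrophages of the resident and the lipid-associated range of a marker score, in the library labelled AEG-1DMAC (red) and the library labelled AEG-1fl/fl (blue). Slc40a1 and Cd163 are higher in the resident range of both libraries, Cd163 on 1 and 12 counts in the other range. Hmox1 differs between libraries and little between ranges.

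Hmox1 differed little along that axis in the main setting. It stood at 316 [285, 349] and 775 [724, 829] CPM in the resident range and at 272 [221, 331] and 701 [667, 737] CPM in the lipid-associated range, so the ranges differed 1.16-fold and 1.11-fold. Over 3 settings the log2 ratio of Hmox1, resident over lipid-associated, lay between -0.36 and 0.89 under the AEG-1DMAC label, so its sign was not stable. Under the other label it lay between 0.14 and 0.39. Within each range the libraries differed as in all macrophages, with log2 ratios of -1.30 [-1.47, -1.12] and -1.37 [-1.68, -1.07]. Slc40a1 was lower under the AEG-1DMAC label within both ranges (-0.41 and -0.26), without subtraction of the hepatocyte profile. Its ratio over all macrophages was 0.15, and lay between 0.05 and 0.63 over the settings. The resident range held 157 of 224 macrophages in that library and 188 of 466 in the other. Cd163 likewise had -0.47 [-0.79, -0.15] within the resident range. The list of abundant hepatocyte genes stood at 56.4% and 36.5% of its hepatocyte level there, and at 28.5% and 24.5% in the lipid-associated range. The resident markers themselves entered the score that set the ranges, so nothing is read from their levels there. In the resident range they stood at 3146 and 4299 CPM (Clec4f), 9546 and 13098 (Cd5l), 501 and 847 (Vsig4), 133 and 170 (Timd4), 374 and 414 (Folr2) and 360 and 271 (Marco). The part of stray hepatocyte transcripts in the library ratios within ranges was not tested. Spic, a heme-responsive factor of iron-recycling macrophages, was 4.45-fold and 2.30-fold higher in the resident range.

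The wider pathway was read from a list of 61 symbols of other iron genes, 58 of them in the files (Hfe2 and Cd91 are older names of the listed Hjv and Lrp1). In hepatocytes 55 had at least 50 counts, and 1 was 2-fold or more higher and 1 lower in the library labelled AEG-1DMAC. The list's median log2 ratio was -0.08, beside -0.04 over all genes. Bmp2 was the higher one at 14.2 and 6.97 CPM (log2 1.03). Lcn2, the siderophore-binding lipocalin of the acute phase, was the lower one at 185 and 420 CPM (log2 -1.18). Next to it stood Alas1, the first enzyme of heme synthesis, at 576 and 1118 CPM (log2 -0.96), Bmp4 (-0.98) and the ferritin receptor Scara5 (-0.60). At the upper end, Bmp6 had 0.77, Socs3, a STAT3 target, 0.71 and the metal transporter Slc39a8 0.51.

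The BMP ligands Bmp6, Bmp2 and Bmp4 were higher in endothelial cells than in hepatocytes, Bmp4 by 16.5-fold and 7.70-fold. Bmp6 was counted at 126 and 144 CPM in endothelial cells against 4.60 and 2.69 CPM in hepatocytes, and Bmp2 at 279 and 317 CPM in endothelial cells. All 14 endothelial markers were also higher in gated hepatocytes of the library labelled AEG-1DMAC, summing to 263 and 165 CPM (median log2 0.56), beside the hepatocyte ratios of Bmp2 (1.03) and Bmp6 (0.77), and their part in these was not tested. The endothelial log2 ratios of Bmp6 and Bmp2 between the libraries were -0.19 [-0.46, 0.07] and -0.18 [-0.36, -0.01]. Of 48 list genes measured in endothelial cells none was 2-fold higher and 2 were lower, Lcn2 (-1.31) and Alas1 (-1.11), with a list median of -0.10 beside -0.16 over all genes. Acvr1 (-0.59), Fgl1 (-0.57), Hjv (0.38), Fech (0.38), the ferritin chain Fth1 (0.29) and Ncoa4 (0.25) were the next extremes.

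In macrophages 46 list genes were measured, 2 were higher (Bmp2 and Slc39a8, on 42 and 36 and on 31 and 31 counts) and none was lower, with a median of -0.12 beside -0.10. The 14 endothelial markers were likewise all higher in these macrophages (711 and 362 CPM in sum, median log2 1.63), beside 1.29 for Bmp2. Among genes with more counts the lowest were Alas1 (-0.91), Bach1, the heme-sensing repressor of Hmox1 (-0.78, 66.5 and 114 CPM), Id1 (-0.71) and the heme transporter Slc48a1 (-0.70, 79.7 and 129 CPM). The highest were Tmprss6 (0.81), Hjv (0.79), Hp (0.77) and Hpx (0.59), all 4 hepatocyte genes, beside the median of 0.83 for the 17 hepatocyte genes. In hepatocytes the same 4 had -0.09, 0.21, -0.16 and -0.20, ceruloplasmin (Cp) had -0.37, Hfe -0.09 and Fth1 0.12.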

How the data were processed

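Livers were profiled with the 10x Genomics fixed RNA kit, in which probe pairs hybridize to transcripts. The deposited matrices hold unnormalized counts of molecules, made by the authors with Cell Ranger 7.1.0 (mm10), and values depend on probe design and levels of different genes are not comparable. The study's cell filter was applied (a minimum of 100 detected genes, a maximum of 10% mitochondrial counts). A cell took a class when its markers had at least 5 counts and 4 times the share of all kept cells. Cells passing more than 1 gate, which include doublets, or none were left out, and hepatocytes passed no other gate and had at least 50% of the usual hepatocyte marker share. These gate settings were chosen after the data had been seen. Counts were summed per class and library and scaled to CPM, with exact Poisson intervals, and ratios were given Clopper-Pearson intervals. No value was tested, because each genotype has 1 library.

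The members, gene lists and comparisons were chosen with earlier results of these data known. All 8 members are named. From the iron list, the 4 highest and 4 lowest library ratios per class among genes with at least 200 counts are named, with Bmp6, Bmp2, Hjv, Hfe, Tmprss6, Fth1, Cp, Hp and Hpx in any case. The rule also names Ftl1, which was not analysed here. The scripts were tested on simulated data. Python 3.11.15, NumPy 2.4.6, SciPy 1.17.1, pandas 2.3.3, matplotlib 3.10.9, R 4.3.3 and Seurat 5.3.0 (clusters used as an alternative, resolution 0.5) were used. Alternatives covered the cell classes, the cell filter, equal weight per cell, scaling by the median of ratios, leaving out the 5% deepest cells, subtraction of the hepatocyte profile, count filters, a 1.5-fold threshold, the landmarks, the number of layers and the macrophage range. One more, which left out the cell with the most counts of a gene in each library, was chosen after seeing the data. Some items that the rules above would name or print are not reported here.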

Additional observations from a re-analysis of the deposited data

How the results depend on the processing

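Each genotype has 1 library, so the variation between mice is unknown, and no setting bears on it. No paired analysis was possible because each group has 1 library, and none could be left out. Under the alternatives, 158 of 160 values of the class differences and 172 of 187 of the library differences kept their sign. So did 209 of 224 of the zone differences and 10 of 11 of the macrophage ranges. Of the members with at least 50 CPM in hepatocytes (Hamp, Trf, Tfr2 and Slc40a1), none became midlobular under any of the zonation alternatives. The other members lay under 50 CPM and could not be called midlobular under any setting. Where a value moved, its cause was not tested.

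Hamp in hepatocytes was 149.9 and 208 CPM as a mean over cells, 156 and 215 CPM without the 5% deepest cells, 182 and 286 CPM under the stricter cell filter, 181 and 260.1 CPM with clusters, and 259.8 CPM in the library labelled AEG-1fl/fl with scaling by the median of ratios. Its library log2 ratio was -0.47 as a mean over cells, -0.46 without the deepest cells and -0.52 with clusters, and that of Hamp2 was 1.40 as a mean over cells and 1.34 without the deepest cells. Hmox1 in macrophages was -0.80 after subtraction of the hepatocyte profile and -0.56 with clusters, which left 0 members lower there. The subtraction also put 2 members (Tfrc and Cd163) higher in macrophages and 1 (Trf) lower in endothelial cells. Hamp was counted as lower in macrophages and as higher in the lipid-associated range. Both Hamp calls arose because the subtraction made its level negative. This happened in macrophages of the library labelled AEG-1DMAC and in the resident range of both libraries. They are therefore not measured differences.

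Without the deepest cells Hamp dropped out of the members higher in hepatocytes than in macrophages. The mean over cells left 1 member (Tfr2) higher in hepatocytes than in macrophages and put 3 (Hamp, Trf and Tfr2) above endothelial cells. Against endothelial cells, 1 member was lower in hepatocytes without the deepest cells (Cd163) and 1 with clusters (Hmox1), and clusters put 1 (Cd163) lower in endothelial cells of the library labelled AEG-1DMAC. With no count filter, 1 member (Hamp2) was higher there in macrophages and 1 in endothelial cells. At 1.5-fold, 2 members were lower in hepatocytes (Hamp and Trf), 2 higher in macrophages (Tfr2 and Cd163) and 1 lower in endothelial cells (Trf). The 2 iron list genes higher in macrophages became 1 with the median of ratios and 0 with at least 200 counts.

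The periportal over pericentral log2 ratio of Hamp under the AEG-1DMAC label was 2.72 with the study's landmarks, 2.17 with 9 layers, 2.41 in hepatocytes with at least 10000 counts, 2.33 as a mean over cells and 2.36 without the deepest cells. Under the AEG-1fl/fl label it was 3.09 with the study's landmarks, 2.67 with 9 layers, 2.82 as a mean over cells and 3.30 without the deepest cells. That of Hamp2 was 1.62 as a mean over cells (AEG-1DMAC label) and 2.59 with 9 layers (AEG-1fl/fl label). The setting with 9 layers compared the highest of the 3 outermost layers at either end. Cd163 in hepatocytes changed sign, to -0.40 with the odd members of the landmark lists (AEG-1DMAC label) and to -0.33 as a mean over cells (AEG-1fl/fl label).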
